A study of Rattus norvegicus with 6 samples.

Results

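The 9 genes of vitamin A and retinoic acid metabolism described here are Retsat, Cyp26b1, Aldh1a1, Aldh1a2, Rbp4, Crabp2, Stra6, Dhrs3 and Rarb. They were found by symbol in a table of 22864 genes, and all 9 were present, each with 1 row. Their gene identifiers in the same order are 246298, 312495, 24188, 116676, 25703, 29563, 363071, 313689 and 24706. They were selected on this pathway with earlier results of these data known, and Retsat had stood out in CPIP+Veh against Sham+Veh. That comparison is therefore counted as used in the choice and is given for the 9 genes as a description, with no p. The other comparisons share the CPIP+Veh or the Sham+Veh libraries with it and are not independent of it.

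Bulk RNA sequencing measured the ipsilateral L4-L6 dorsal root ganglia of wild-type male rats, where the neurons that sense the hind limb have their cell bodies. In CPIP+Veh and CPIP+ETA the hind limb was tied near the ankle with an O-ring for 3 h under pentobarbital, known in the field as chronic post-ischaemia pain, while Sham+Veh rats had the anaesthesia and no ring. CPIP+ETA rats had intrathecal etanercept, a soluble TNF receptor fusion protein, and the other groups vehicle, each given daily from 2 days after the procedure. Ganglia were taken on day 7, with 2 libraries per group. The labels give no age and do not say whether libraries came from separate or pooled animals, so each p-value rests on a spread between libraries that may be technical.

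Vitamin A reaches tissues as retinol bound to a plasma carrier, enters cells through a membrane receptor, and is oxidised first to retinal and then, irreversibly, to retinoic acid. Retinoic acid binds nuclear receptors that switch genes on, among them genes for its own carrier, receptor and breakdown enzyme. By inducing the breakdown enzyme the pathway damps itself. In the nervous system it patterns the embryo and has been linked to the regrowth of sensory axons, and the meninges are a known source of it.

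The nuclear receptors of retinoic acid bind pairs of a hexamer repeated in the same direction. Stretches around the start of each gene, from 250 bases before it to 50 after, were read from RefSeq on the GRCr8 build for all 9 genes. They were searched on both strands for the hexamer AGGTCA, its variant AGTTCA, the form GGGTCA and the form GGTTCA, alone and as a direct repeat with 1, 2 or 5 bases between the hexamers. Only Rarb held a repeat, the form with 5 bases between, which 0.382% of 33469 promoters held; repeats with 1 and 2 bases between were in 0.233% and 0.17% of promoters. A single hexamer lay in 4 of the 9, against 44.4% of promoters, so it does not set these genes apart. A match describes the letters in this window and is not a measured binding site. The Rarb repeat is shown because it is the textbook element of this receptor gene, and the Retsat, Stra6 and Aldh1a1 matches because they are the only hexamers found in the other 8 genes. Capitals mark the hexamers, and in Rarb the whole repeat.
Rarb: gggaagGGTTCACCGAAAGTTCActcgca
Retsat: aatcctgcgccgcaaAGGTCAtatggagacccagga
Stra6: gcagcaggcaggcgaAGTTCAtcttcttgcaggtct
Aldh1a1: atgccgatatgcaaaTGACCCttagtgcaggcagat

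The Rarb repeat lies at chr15:11336416-11336432 on the plus strand of GRCr8, 25 to 41 bases after the annotated start used here. The Retsat hexamer lies at chr4:106211281-106211286, the Stra6 hexamer at chr8:67444625-67444630 and the Aldh1a1 hexamer at chr1:227537555-227537560, all before the start, the last on the minus strand. The counts themselves were made on another build, Rnor_6.0, for which no coordinates are given.

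Totals were 18284891 to 19981081 reads per library, and the ganglion was recognisable in all 6 libraries: 12 sensory neuron markers summed to between 26265 and 29069 CPM (reads of a gene relative to the library total scaled by TMM, the normalisation edgeR uses). Library CPIP+ETA 1 stood apart in markers that bear on the results below. Its 10 markers of the leptomeninges, the thin membranes that wrap roots and ganglia, summed to 219.2 CPM, against 525.7 to 827.3 CPM in the other 5 libraries. The prostaglandin synthase gene Ptgds made up 57.7% of that sum in CPIP+ETA 1 and 70.7% to 77.0% in the others, and the other 9 markers were also lowest there, at 92.7 CPM against 152.5 to 190.1 CPM. Its Schwann cell markers, at 9706 CPM, were also the lowest (11815 to 14544 in the others). The 5 red blood cell markers were highest in both CPIP+ETA libraries, at 308.7 and 183.1 CPM against 28.3 to 118.2 CPM in the others. Of these 5, Slc4a1 was instead highest in CPIP+Veh 2. The part of blood in the results below was not tested. In bulk tissue, fewer cells of a type and less RNA per cell cannot be told apart.

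Every library with the ring had more Retsat than either sham library, with etanercept and with vehicle alike, while Cyp26b1, Aldh1a1 and Aldh1a2 were lowest in the CPIP+ETA libraries. Rbp4 differed more within groups than between them, and Stra6, Crabp2, Dhrs3 and Rarb stayed within 1.61-fold over all 6 libraries. All 9 genes passed the filter on low counts. With edgeR's quasi-likelihood test over 15531 genes, which called 3, 0 and 3 genes in the comparisons named next, 0 of the 9 were called at an adjusted p under 0.05 in any comparison. The share of all genes called was 0.0193% for CPIP+Veh against Sham+Veh, 0% for CPIP+ETA against CPIP+Veh and 0.0193% for CPIP+ETA against Sham+Veh. Without adjustment, 1, 3 and 4 of the 9 had a p under 0.05, against 4.94%, 5.15% and 6.37% of all genes. DESeq2 called 1, 0 and 3 of the 9, against 0.246%, 0.113% and 0.262% of genes, and limma-voom called 0 of the 9 in each. The first of these comparisons was used in the choice, and the other comparisons share libraries with it. Since the 9 genes were chosen with earlier results known, nothing is read from these counts in any comparison.

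**Figure D1:**
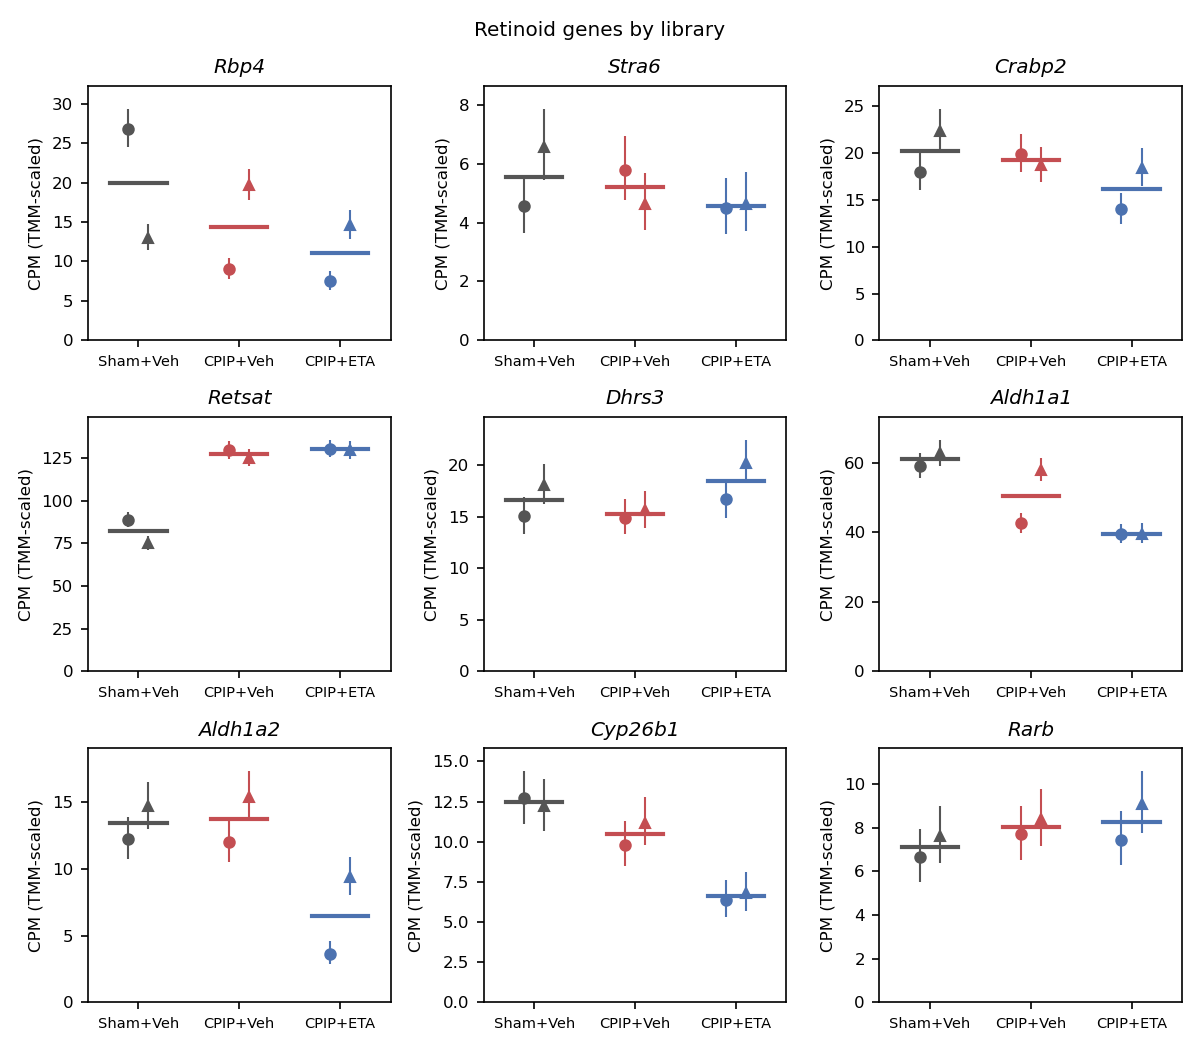
Level of each of the 9 genes in CPM (TMM-scaled, y axis from 0) by group, with circles for library 1, triangles for library 2, horizontal bars for group means and vertical bars for the 95% counting interval of each library. Both sham libraries of Retsat lie below the 4 CPIP libraries, and both CPIP+ETA libraries of Cyp26b1, Aldh1a1 and Aldh1a2 lie below the other 4.

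Retsat encodes retinol saturase, an enzyme of the endoplasmic reticulum that saturates a double bond of retinol and so takes it out of the path to retinoic acid. It is also known in the fat cell, where it promotes differentiation. The Sham+Veh libraries held 88.9 and 75.1 CPM, the CPIP+Veh libraries 129.6 and 125.1 CPM, and the CPIP+ETA libraries 130.4 and 129.7 CPM. All 4 CPIP libraries lay above both sham libraries, and they lay closer to each other than the sham libraries did. The sham libraries differed beyond counting error, with 95% Poisson intervals of 84.6 to 93.3 and 71.2 to 79.2 CPM.

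The mean of Retsat was 82.0 ± 9.71 CPM (SD, n = 2) in Sham+Veh and 127.4 ± 3.16 CPM in CPIP+Veh, a log2 fold change of 0.64 (SE 0.08) in the comparison used in the choice. In CPIP+ETA the mean was 130.1 ± 0.502 CPM. Against Sham+Veh this was a log2 fold change of 0.67 (SE 0.08, edgeR adjusted p = 0.256), which did not pass. DESeq2 called it (adjusted p = 1.19e-07), and the sham libraries are those of the choosing comparison. Leaving out each library in turn gave edgeR values between 0.55 and 0.80.

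Etanercept was set against vehicle to ask what blocking TNF changed in the model. For Retsat the log2 fold change was 0.03 (SE 0.08, edgeR adjusted p = 0.976), so the level with etanercept differed from that with vehicle by less than its standard error. The CPIP+ETA libraries lay above those of CPIP+Veh by less than 1 counting interval.

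The tested genes whose profile over the 6 libraries lay nearest to that of Retsat were Espl1, RT1-CE3 and Cenpe. The measure was the root mean square difference of log2 CPM centred on each gene's mean, over 15530 genes, and it came to 0.085, 0.0876 and 0.0958. Espl1 is the protease separase, Cenpe a kinetochore motor and RT1-CE3 a class I histocompatibility gene whose reads can be shared with near-identical genes. Espl1 stood at 1.73 and 1.26 CPM in sham and 2.13 to 2.32 CPM in the CPIP libraries, RT1-CE3 at 25.3 and 22.1 and then 31.6 to 35.8, and Cenpe at 3.47 and 2.85 and then 4.18 to 4.56. Some of 15530 genes must lie nearest, so nothing is read from which they were. At such low CPM, counting error also enters the distances of Espl1 and Cenpe, and the likeness was not tested.

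Fat cells are a known site of Retsat. The 9 adipocyte markers summed to 14.3 and 9.69 CPM in sham, and 4.05, 6.00, 4.89 and 7.30 CPM in the 4 CPIP libraries, so all 4 CPIP libraries lay below sham where Retsat lay above. They lay below sham for 5 of the 9 markers singly, and for 8.38% of all tested genes. Of the CPIP sums, Cfd alone made up 3.85, 4.79, 4.18 and 4.57 CPM. The other markers held at most 32 reads in a CPIP library. Adipoq was at 0 in both CPIP+Veh libraries and Ucp1 in all 6. The 10 nerve injury markers summed to 430.5 and 381.6 CPM for sham, to 476 and 657.6 CPM with the ring and vehicle, and to 391 and 464 CPM with the ring and etanercept. That sum is mostly Gap43 and Jun, for which CPIP+ETA overlapped with sham. Taken singly, 5 of the 10 were higher in all 4 CPIP libraries than in both sham libraries, as Retsat was. Of all tested genes, 7.42% were. These, Sox11, Npy, Sprr1a, Gadd45a and Ecel1, were picked out with their values in view. Sprr1a held only 1 read in CPIP+ETA 1. Atf3, Gal and Jun lay below both sham libraries in CPIP+ETA 1. Unlike Retsat, Sox11 and Sprr1a were lower in both CPIP+ETA libraries than in both CPIP+Veh libraries. For Npy, Gadd45a and Ecel1 these groups overlapped. Etanercept went with 1.41 and 12.9 CPM of Npy, and vehicle with 6.08 and 35.8 CPM. The part of either list in the result for Retsat was not tested.

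Dhrs3 encodes a reductase that turns retinal back into retinol and so limits retinoic acid synthesis, and retinoic acid itself induces it in other tissues. It was at 15.1 and 18.1 CPM in the sham libraries, while CPIP+Veh had 14.9 and 15.6 CPM, and CPIP+ETA 16.7 and 20.2 CPM. The CPIP+ETA libraries lay above those of CPIP+Veh and overlapped with sham. The log2 fold change was 0.27 (SE 0.13, edgeR adjusted p = 0.938) against CPIP+Veh and 0.15 (SE 0.13, adjusted p = 0.893) against sham, and neither passed. Without CPIP+ETA 1 they were 0.405 and 0.295, and without CPIP+ETA 2 they were 0.125 and 0.0146. Without Sham+Veh 1 or 2 the second was 0.0376 or 0.295.

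Aldh1a1 and Aldh1a2 encode retinal dehydrogenases, which make retinoic acid from retinal. Aldh1a1 stood at 59.2 and 62.8 CPM in Sham+Veh, 42.6 and 58.0 CPM in CPIP+Veh, and 39.6 CPM in both CPIP+ETA libraries. Every CPIP library lay below both sham libraries, CPIP+Veh 2 by less than counting error, and both CPIP+ETA libraries lay below the other 4. The CPIP+Veh libraries differed 1.36-fold from each other, beyond counting error.

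Against Sham+Veh the log2 fold change of Aldh1a1 with etanercept was -0.62 (SE 0.14, edgeR adjusted p = 0.531), which did not pass, while DESeq2 gave an adjusted p of 0.0497. Against CPIP+Veh it was -0.34 (SE 0.14, adjusted p = 0.938), or -0.10 when CPIP+Veh 2 was left out and -0.55 when CPIP+Veh 1 was. The value of CPIP+Veh against Sham+Veh was -0.28 (SE 0.13), or -0.52 and -0.07 with the same libraries left out. Aldh1a7, a close copy of Aldh1a1 with which reads could be shared, held 5 reads over all 6 libraries.

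Aldh1a2 is the retinoic acid-making enzyme of the meninges. It stood at 12.2 and 14.7 CPM in Sham+Veh, 12.0 and 15.4 CPM in CPIP+Veh, and 3.63 and 9.37 CPM in CPIP+ETA. Sham and CPIP+Veh overlapped, both CPIP+ETA libraries lay below them, and CPIP+ETA 1 lay far below CPIP+ETA 2. Those libraries held 72 and 172 reads.

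The log2 fold change of Aldh1a2 with etanercept was -1.09 (SE 0.38, edgeR adjusted p = 0.938) against CPIP+Veh and -1.06 (SE 0.39, adjusted p = 0.757) against Sham+Veh, and neither passed. The values rest largely on CPIP+ETA 1: without it they were -0.55 and -0.51, and without CPIP+ETA 2 they were -1.92 and -1.88. The remaining comparison, CPIP+Veh against Sham+Veh, gave 0.03 (SE 0.37).

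The summed meningeal markers were lowest in CPIP+ETA 1, as Aldh1a2 was. In CPIP+ETA 2 the sum lay between those of the CPIP+Veh libraries, where Aldh1a2 lay below both. Summed over 10 leptomeninges markers, the sham libraries had 589.1 and 827.3 CPM, CPIP+Veh 525.7 and 655.2 CPM, and CPIP+ETA 219.2 and 545.5 CPM, with no marker at 0. All 10 lay below 0 in CPIP+ETA against CPIP+Veh, with a median log2 fold change of -0.64 where that of all genes was 0.00. Of them edgeR called 0, and 2 had an unadjusted p under 0.05, against 5.15% of all genes. Against sham all 10 lay below 0 with etanercept (median -0.95, 5 at an unadjusted edgeR p under 0.05, against 6.37% of all genes). In CPIP+Veh against sham 9 of 10 lay below 0 (median -0.26), where Aldh1a2 was at 0.03. Set per 100 CPM of these markers, Aldh1a2 ran from 1.65 to 2.36 over the 6 libraries, a 1.42-fold range where its CPM had a 4.26-fold range. The CPIP+ETA libraries, at 1.65 and 1.72, were still the lowest, next to 1.77 in Sham+Veh 2. This narrow range rests on Ptgds. Per 100 CPM of the other 9 markers, a measure added after seeing the data, the sham libraries had 7.25 and 7.71 of Aldh1a2, CPIP+Veh had 7.80 and 8.21, and CPIP+ETA had 3.91 and 6.14, a 2.10-fold range with CPIP+ETA 1 lowest. The part of these markers in the result was not tested beyond this.

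**Figure D2:**
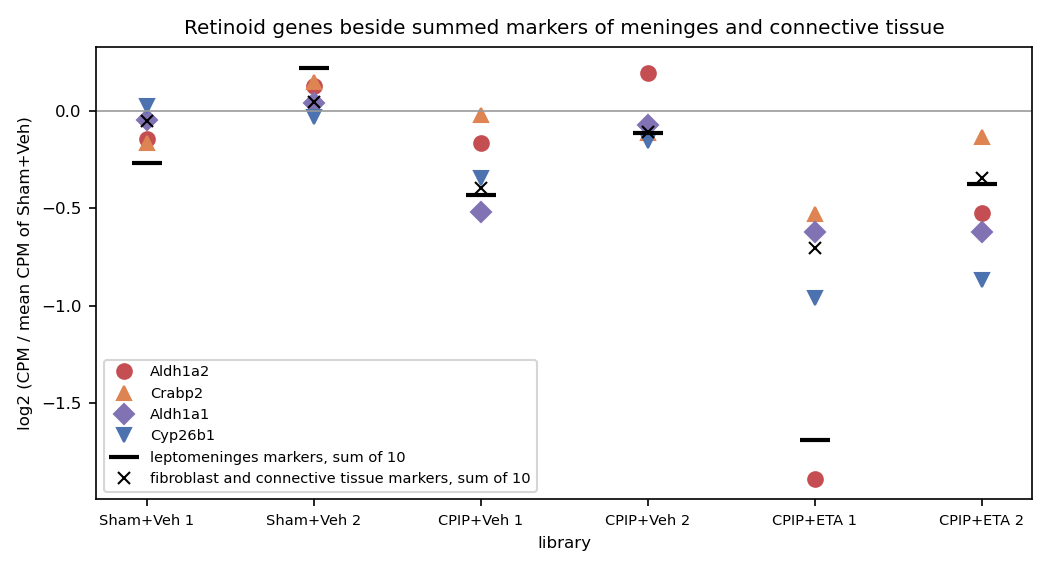
Log2 ratio of each library's CPM to the mean CPM of Sham+Veh (y axis) by library, for 4 retinoid genes and for the summed markers of leptomeninges (10 genes, black bars) and of fibroblasts and connective tissue (10 genes, black crosses). Aldh1a2 lies near the leptomeninges bar, which is mostly Ptgds, in CPIP+ETA 1, where Aldh1a1 and Crabp2 lie near the connective tissue cross.

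Cyp26b1 encodes the cytochrome P450 that degrades retinoic acid, and it is induced by retinoic acid in many tissues. Sham libraries had 12.7 and 12.2 CPM, CPIP+Veh libraries 9.82 and 11.2 CPM, and CPIP+ETA libraries 6.40 and 6.81 CPM. The 3 groups did not overlap, and the CPIP+ETA libraries, with 127 and 125 reads, agree within counting error. Their 95% Poisson intervals were 5.33 to 7.61 and 5.67 to 8.11 CPM, both below that of the lowest other library, CPIP+Veh 1, at 8.49 to 11.3 CPM.

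The log2 fold change of Cyp26b1 with etanercept was -0.67 (SE 0.12, edgeR adjusted p = 0.721) against CPIP+Veh and -0.91 (SE 0.12, adjusted p = 0.262) against Sham+Veh. Neither passed, and the latter was called by DESeq2 (adjusted p = 0.0262). Leaving out each library in turn kept the first between -0.76 and -0.57 and the second between -0.95 and -0.86. The value of CPIP+Veh against Sham+Veh was -0.24 (SE 0.11), between -0.34 and -0.15.

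In CPIP+ETA 1, where the meningeal markers were lowest, Cyp26b1 was at nearly the same level as in CPIP+ETA 2, at 2.92 and 1.25 per 100 CPM of those markers (1.48 to 2.15 in the other 4 libraries). Without Ptgds the values were 6.90 and 4.46, against 5.95 to 7.51 in the other 4, so CPIP+ETA 1 lay among them and CPIP+ETA 2 below. The sum of 10 fibroblast and connective tissue markers came to 3694 and 3949 CPM for sham, while CPIP+Veh had 2904 and 3553 CPM and CPIP+ETA had 2346 and 3007 CPM. Where 8.38% of all tested genes were lower in all 4 CPIP libraries than in both sham libraries, 6 of the 10 markers were. Per 100 CPM of those, the sham libraries had 0.343 and 0.309 of Cyp26b1, CPIP+Veh 0.338 and 0.315, and CPIP+ETA 0.273 and 0.226, still the lowest, as they were without Dcn, the most abundant of the 10. On the same measure Aldh1a1 was 1.69 and 1.32 with etanercept and 1.47 to 1.63 in the other 4 libraries, so its groups overlapped. The part of these markers in either gene was not tested further.

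Among carriers and receptors, Rbp4 encodes the plasma retinol carrier, made by liver and fat. It stood at 26.8 and 13.0 CPM in Sham+Veh, 9.11 and 19.7 CPM in CPIP+Veh, and 7.51 and 14.6 CPM in CPIP+ETA. The groups overlapped in all 3 comparisons, and libraries of a group differed 1.95-fold to 2.16-fold. The log2 fold change with etanercept was -0.38 (SE 0.50, edgeR adjusted p = 0.95) against CPIP+Veh and -0.85 (SE 0.50, adjusted p = 0.841) against sham. The latter was -0.22 without Sham+Veh 1, -0.435 without CPIP+ETA 1, -1.28 without Sham+Veh 2 and -1.40 without CPIP+ETA 2. Sham+Veh 1, the highest library, was also highest for albumin (Alb, 83.5 CPM against 2.27 to 32.6 in the others) and for transthyretin (Ttr, 8.56 against 0.655 to 5.12), the plasma partner of Rbp4. It was highest for the adipocyte markers as well, at 14.3 CPM. CPIP+Veh 2, second for Rbp4, was lowest for Alb. The part of these markers was not tested.

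Stra6 encodes the membrane receptor that takes retinol from its plasma carrier. It was the least counted of the 9, with 84 to 120 reads per library, and stood at 4.55 and 6.57 CPM in Sham+Veh, 5.77 and 4.64 CPM in CPIP+Veh, and 4.48 and 4.63 CPM in CPIP+ETA. Crabp2, the carrier that hands retinoic acid to its nuclear receptor, stood at 18 and 22.4 CPM, 19.9 and 18.7 CPM, and 14 and 18.4 CPM in the same order. In both genes CPIP+ETA lay below CPIP+Veh without overlap, their nearest libraries by less than counting error, and overlapped with sham. The log2 fold changes with etanercept were -0.19 (SE 0.22, edgeR adjusted p = 0.948) for Stra6 and -0.26 (SE 0.16, adjusted p = 0.938) for Crabp2 against CPIP+Veh, or -0.07 for Crabp2 without CPIP+ETA 1 and -0.471 without CPIP+ETA 2, and -0.0227 for Stra6 without CPIP+Veh 1 and -0.341 without CPIP+Veh 2. Against sham they were -0.29 (SE 0.22, adjusted p = 0.889) and -0.32 (SE 0.16, adjusted p = 0.822), the latter -0.129 without CPIP+ETA 1, -0.155 without Sham+Veh 2 and -0.531 without CPIP+ETA 2. No comparison of either gene passed.

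Rarb encodes a nuclear receptor of retinoic acid, and its promoter repeat shown above is the element through which retinoic acid is known to induce it. It stood at 6.66 and 7.61 CPM in Sham+Veh, 7.70 and 8.42 CPM in CPIP+Veh, and 7.46 and 9.09 CPM in CPIP+ETA. CPIP+Veh lay above sham by less than counting error, and CPIP+ETA overlapped with both. With etanercept the log2 fold change was 0.04 (SE 0.15, edgeR adjusted p = 0.984) against CPIP+Veh and 0.21 (SE 0.15, adjusted p = 0.875) against sham, the latter 0.068 without CPIP+ETA 2, 0.129 without Sham+Veh 1 and 0.358 without CPIP+ETA 1. Rarb did not share the lower CPIP+ETA levels of Cyp26b1, another gene that retinoic acid induces; the difference between these genes was not tested.

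Counted over the 9 genes, CPIP+Veh lay wholly above Sham+Veh in 2 (Retsat and Rarb) and below in 2 (Cyp26b1 and Aldh1a1), where 17.6% and 19.5% of all genes did. CPIP+ETA lay above CPIP+Veh in 2 (Retsat and Dhrs3, 15.7% of all genes) and below in 5 (Cyp26b1, Aldh1a1, Aldh1a2, Crabp2 and Stra6, 16.9%). Against Sham+Veh, CPIP+ETA lay above in 1 (Retsat, 17.2%) and below in 3 (Cyp26b1, Aldh1a1 and Aldh1a2, 18.5%). All 4 CPIP libraries lay above both sham libraries in 1 gene (Retsat, 7.42% of all genes) and below in 2 (Cyp26b1 and Aldh1a1, 8.38%). Both CPIP+ETA libraries lay above the other 4 in 1 (Retsat, 6.45%) and below in 3 (Cyp26b1, Aldh1a1 and Aldh1a2, 7.42%). With CPIP+ETA 2 alone 3 genes lay below those 4 libraries (21.3% of all genes), and with CPIP+ETA 1 alone 6 did (24.1%). For the 5 genes not yet given, the log2 fold changes of CPIP+Veh against sham were -0.47 (SE 0.49) for Rbp4, -0.09 (SE 0.22) for Stra6, -0.07 (SE 0.16) for Crabp2, -0.11 (SE 0.13) for Dhrs3 and 0.18 (SE 0.15) for Rarb. Since the genes were chosen with results known, these counts are a description.

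**Figure D3:**
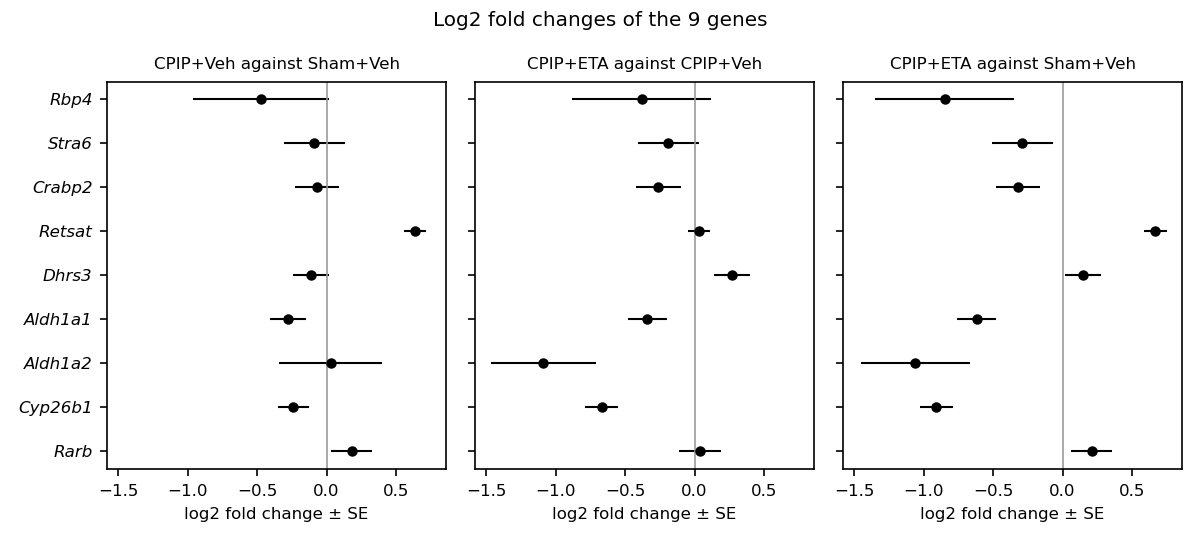
Log2 fold change (x axis, points) with its SE (bars) from edgeR for the 9 genes in the 3 comparisons. Retsat is at 0.64 and 0.67 against sham and 0.03 for etanercept against vehicle, and Cyp26b1 is at -0.24, -0.67 and -0.91 from the left panel to the right.

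The wider pathway was read from a list of 75 retinoid genes, the 9 among them, all in the table, of which 60 passed the filter. Stra6l and Pnpla4 were found under older symbols by gene identifier. Of the 51 tested genes outside the 9, edgeR called 0 in each comparison. For CPIP+Veh against sham, 1 was higher and 1 lower at an unadjusted edgeR p under 0.05. With etanercept these counts were 6 and 1 against vehicle, and 1 and 1 against sham. Over all genes the shares, both directions together, were 4.94%, 5.15% and 6.37% in the same order. DESeq2 called 0 of the 51 in each. Their median log2 fold changes were -0.01, 0.04 and 0.06, where those of all genes were 0.00.

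For CPIP+Veh against Sham+Veh Fabp5 and Adh1 were among those of the 51 with the lowest p. Fabp5, which can carry retinoic acid to other receptors, stood at 228.7 ± 0.569 against 191.1 ± 9.82 CPM (SD, n = 2; edgeR adjusted p = 0.938). Adh1, an alcohol dehydrogenase that oxidises retinol, stood at 0.934 ± 0.319 against 2.2 ± 0.484 CPM (adjusted p = 0.938).

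For etanercept against vehicle they were Cyp2s1, Ncoa3 and Lipe. Cyp2s1, a cytochrome P450 reported to oxidise retinoic acid in human work, stood at 13.2 and 10.3 CPM in Sham+Veh, 14 and 8.57 CPM in CPIP+Veh, and 3.98 and 6.37 CPM in CPIP+ETA. As with Cyp26b1, both CPIP+ETA libraries lay below the other 4. Its log2 fold change was -1.13 (SE 0.31, edgeR adjusted p = 0.938) against CPIP+Veh and -1.19 (SE 0.31, adjusted p = 0.617) against Sham+Veh. Leaving out each library gave -1.50 to -0.73, nearest to 0 without CPIP+Veh 1, for the former and -1.56 to -0.88 for the latter. Ncoa3, a receptor co-activator, had 0.30 (SE 0.08, adjusted p = 0.938), and Lipe, a lipase that also releases retinol from its esters, 0.22 (SE 0.07, adjusted p = 0.938). Against Sham+Veh, Cyp2s1, Ncoa3 (0.20, SE 0.08, adjusted p = 0.769) and the retinoic acid receptor Rara (-0.24, SE 0.10, adjusted p = 0.793) had the lowest p.

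By role, the 5 tested genes of retinoic acid synthesis had median log2 fold changes of -0.28, -0.03 and -0.57 in the 3 comparisons in the order above, and the 2 tested breakdown genes, Cyp26b1 and Cyp2s1, had -0.15, -0.90 and -1.05. The 7 nuclear receptors had -0.02, 0.04 and -0.06, and the 7 receptor cofactors -0.06, 0.10 and 0.05. The 12 genes of uptake, transport and binding had -0.03, -0.17 and -0.03, the 9 of ester storage -0.01, -0.01 and 0.01, and the 14 of retinol and retinal oxidation or reduction 0.10, 0.05 and 0.11. Among 11 genes known to respond to retinoic acid the medians were -0.07, -0.06 and -0.13. No gene of these lists was called by edgeR, and the median of all genes was 0.00 in each comparison. The synthesis medians include Aldh1a1 and Aldh1a2, and those of breakdown Cyp26b1, which were chosen with results known.

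Several genes of the list that act elsewhere were barely counted. The other retinoic acid hydroxylases, Cyp26a1 and Cyp26c1, held 9 and 3 reads over all 6 libraries, and the photoreceptor retinoid carrier Rbp3 held 0. Rdh8, a retinol dehydrogenase of the retina, held 1 read, and Stra8, a retinoic acid target of germ cells, held 2. These 5 genes were not tested.

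**Figure D4:**
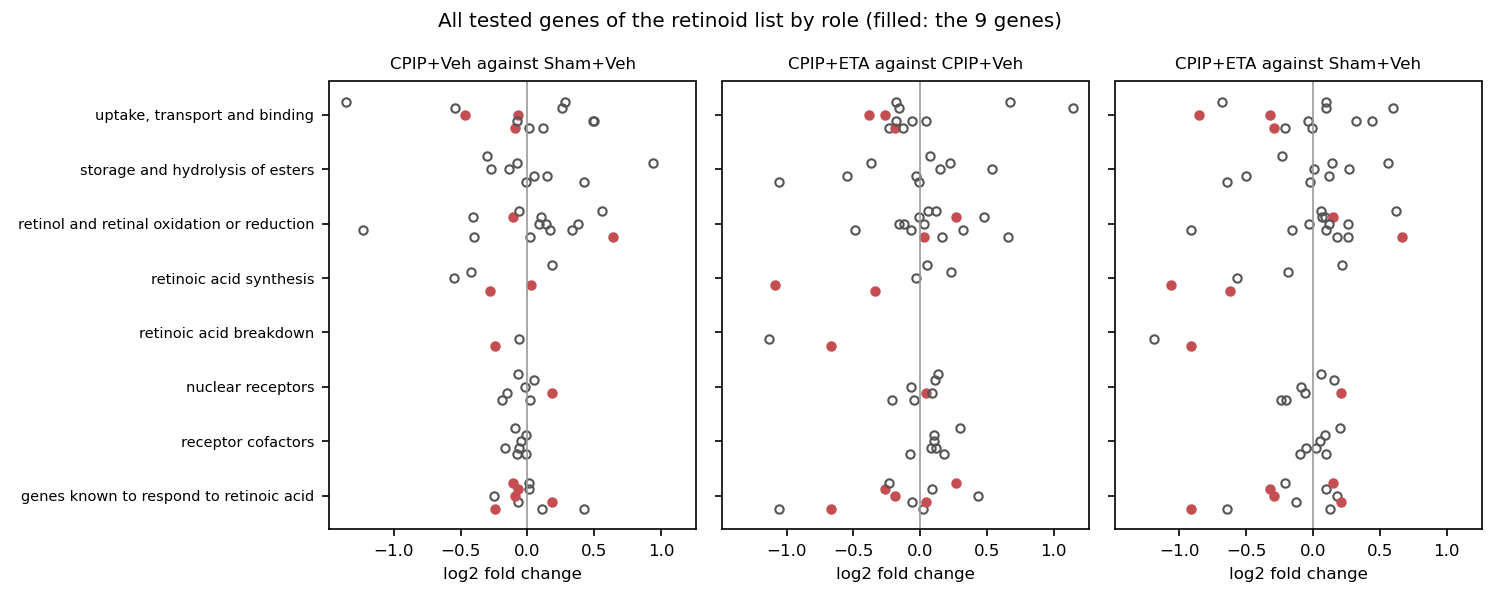
Log2 fold change (x axis) of the 60 tested retinoid genes by role (rows) in the 3 comparisons, with the 9 genes filled and the other 51 open; a gene with more than 1 role appears in each. The genes of breakdown lie left of 0 in all panels, at -0.24 and -0.06 in the first and further left in both etanercept panels. The receptors and cofactors lie between -0.24 and 0.30. All 7 cofactors lie left of 0 in the first panel, and 6 of the 7 right of 0 in the second. The CPIP+Veh libraries enter these panels with opposite signs, so the counts are not independent and no reversal is read from them.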

How the data were processed

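The authors deposited 1 table of expected counts, which are estimates and often fractional (32.7% were whole), with 22864 genes and 6 libraries. Per the labels' protocols, RNA with a RIN of at least 8.0 was sequenced on a BGISEQ-500; the submitters' processing notes name Rnor_6.0. Aligner, counting program, annotation and strand handling: not given in the sources used here; hence reads of overlapping antisense genes cannot be told apart. Blank rows (2907 genes) were read as 0 and counts rounded.

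All 6 libraries, grouped by title, were fitted in R 4.3.3 with edgeR 4.0.16 (quasi-likelihood F-test, TMM, filterByExpr with minimum count 10 and total 15), leaving 15531 genes; p-values were adjusted by Benjamini-Hochberg over all of them, called under 0.05. SE is the log2 fold change over the square root of F. Library totals ran from 18284891 to 19981081; 95% exact Poisson intervals cover counting error only. Levels were not compared between genes, since they are not per length. The procedure was tested on simulated data.

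The 9 genes and all lists were chosen with earlier results of these data known. In the wider list the 3 genes with the lowest p per comparison were named (1 is not reported here), and the 3 genes nearest to Retsat; genes at or near 0 and other markers were named once their values were known. The alternatives were RLE and library-total scaling, other filters, DESeq2 1.42.0, limma-voom (limma 3.58.1), only the groups compared, a replicate block and each library left out; the lone library is then assumed to vary like the others. Promoters are from RefSeq, GRCr8; figures from matplotlib 3.10.9.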

Additional observations from a re-analysis of the deposited data

How the results depend on the processing

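The 9 genes kept their direction in CPIP+ETA against CPIP+Veh and against Sham+Veh under every alternative but for 3 values, each turned by leaving out 1 library. Rbp4 with etanercept against vehicle ran from -0.94 to 0.28 on the log2 scale, above 0 without CPIP+Veh 2 or CPIP+ETA 1 (0.03). Rarb ran from -0.11 to 0.18, below 0 without CPIP+Veh 1 (-0.02) or CPIP+ETA 2. Stra6 against sham ran from -0.52 to 0.005, above 0 without Sham+Veh 2. In CPIP+Veh against Sham+Veh, the values of Aldh1a2, Rbp4 (-1.13 to 0.16), Crabp2, Stra6 and Dhrs3 also changed sign with a library left out, and those of Retsat, Cyp26b1, Aldh1a1 and Rarb did not. DESeq2 called Retsat, Cyp26b1 and Aldh1a1 in CPIP+ETA against Sham+Veh, which edgeR did not; the cause was not tested.

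Over all genes DESeq2 called 46, 22 and 45 genes in the 3 comparisons, in the order of the report, where edgeR called 3, 0 and 3. With 1 library left out the count was 1 to 3 in the first, 0 in the second and 1 to 2 in the third, and in the third 1 with only the groups compared or with limma-voom. The title numbers did not pair the libraries (correlations of deviations 0.039, -0.11 and 0.007), and with them as a replicate block edgeR called 3, 0 and 3. With the numbers of CPIP+ETA crossed, an alternative added after seeing the data, it called 1 against Sham+Veh. The precision is limited by 2 libraries per group and, for Stra6 and Aldh1a2, by as few as 84 and 72 reads in a library.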
